A study of Mus musculus with 6 samples.

Results

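Hoxb1, Hoxb2, Hoxb3, Hoxb4 and Hoxb13 are the genes at the ends of the mouse Hoxb cluster on chromosome 11. They were followed through the ATAC-seq intervals assigned to them in NSPCs (neural stem/progenitor cells) of 2 genotypes. An interval belonged to a gene when its strongest summit, the one with the highest fold enrichment, had that gene's transcription start site (TSS) as the nearest protein-coding one, at most 50 kb away. This gave 33 intervals, 13 in the parent list and 20 in the ΔSRR2–18 list, of 190252 distinct intervals in both lists together (82885 parent and 107480 ΔSRR2–18, with intervals of identical ends counted once). ATAC-seq reads pile up where a transposase can reach the DNA, which marks promoters, enhancers and other open sites.

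NSPCs were grown from F1 hybrid ESCs with a 129S1 and a Cast genome and carried a Sox2-mCherry fusion on the 129 allele. The parent line, Clone 5B, had no deletion, and the ΔSRR2–18 line, Clone 47D, lacked the Sox2 regulatory regions SRR2 to SRR18 on both alleles, so each genotype was 1 clone. There were 3 cultures of each, grown in N2B27 medium with EGF and bFGF on poly-d-lysine and laminin. The authors pooled the cultures of a genotype into a single peak list, so the values below come without an error between cultures and the genotypes could not be compared by a test. An open site in fewer cells and a less open site in every cell cannot be told apart.

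Hox genes encode homeodomain transcription factors that give cells along the body axis their position. In each cluster the genes at the 3′ end are switched on first and reach farthest forward, into the hindbrain, and those at the 5′ end act in the trunk and tail. Hoxb1 to Hoxb4 are such 3′ genes, with roles in hindbrain segments and the anterior spinal cord, and are known targets of retinoic acid. Hoxb13 stands at the 5′ end, apart from its neighbours, and is known for its part in the tail and in prostate and hindgut. HOX proteins bind DNA together with PBX and MEIS cofactors. Forebrain progenitors normally express few or none of the Hox genes.

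All 5 genes lie on the forward strand of chromosome 11 (mm10, GENCODE M21). Hoxb13 (ENSMUSG00000049604.3) spans 96194316 to 96197447 and is separated from Hoxb9, the next coding gene, by 74009 bp. Hoxb4 (ENSMUSG00000038692.8) spans 96318267 to 96321638, Hoxb3 (ENSMUSG00000048763.11) spans 96323326 to 96347930, Hoxb2 (ENSMUSG00000075588.6) spans 96350525 to 96354012, and Hoxb1 (ENSMUSG00000018973.2) spans 96365752 to 96368256. Beyond Hoxb1 there is no coding gene for 96336 bp, up to Skap1. Hoxb3 has an internal TSS at 96343769 besides the one at its start. The only Hoxb2 TSS used, at 96351631, lies inside the gene as annotated, and Hoxb2 distances are measured from it. The antisense RNA gene Hoxb3os overlaps Hoxb2 and the 3′ end of Hoxb3, and the lists carry no strand, so intervals there cannot be ascribed to either.

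The following stretches surround strongest summits that the results turn on: intervals in 1 list alone, and shared intervals whose level or leading summit differed between the lists. They are reference sequence of mm10, forward strand, and reach 100 bp to each side of the summit, or less where an exon was left out. Capitals mark exact matches to the motifs given further below, and a stretch without capitals either held none or had none to show.
Hoxb13 promoter, ΔSRR2–18 alone (chr11:96194170-96194315): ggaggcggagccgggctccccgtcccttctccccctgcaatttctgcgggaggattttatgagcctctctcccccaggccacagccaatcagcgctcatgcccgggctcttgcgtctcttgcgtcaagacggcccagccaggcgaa
Hoxb4, 3.38 kb upstream, ΔSRR2–18 alone (chr11:96314787-96314987): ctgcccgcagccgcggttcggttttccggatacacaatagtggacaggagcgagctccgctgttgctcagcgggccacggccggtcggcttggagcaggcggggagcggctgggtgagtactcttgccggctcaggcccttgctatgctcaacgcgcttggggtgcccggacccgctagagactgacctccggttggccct
Hoxb3, 2.58 kb upstream of its internal TSS, shared (chr11:96341152-96341289): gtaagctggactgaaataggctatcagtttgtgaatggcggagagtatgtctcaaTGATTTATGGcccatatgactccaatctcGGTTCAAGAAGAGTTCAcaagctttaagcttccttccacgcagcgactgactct
Hoxb3, 1.6 kb upstream of its internal TSS, shared (chr11:96342109-96342269): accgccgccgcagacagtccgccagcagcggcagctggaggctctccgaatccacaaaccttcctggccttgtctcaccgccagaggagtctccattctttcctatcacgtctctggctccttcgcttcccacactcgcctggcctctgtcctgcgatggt
Hoxb2, 1.52 kb upstream, parent alone (chr11:96350011-96350211): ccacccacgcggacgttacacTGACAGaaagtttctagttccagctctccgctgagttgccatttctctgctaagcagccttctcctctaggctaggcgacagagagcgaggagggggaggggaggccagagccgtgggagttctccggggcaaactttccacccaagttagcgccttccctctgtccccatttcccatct
Hoxb1, 26.2 kb downstream, ΔSRR2–18 alone (chr11:96391830-96392030): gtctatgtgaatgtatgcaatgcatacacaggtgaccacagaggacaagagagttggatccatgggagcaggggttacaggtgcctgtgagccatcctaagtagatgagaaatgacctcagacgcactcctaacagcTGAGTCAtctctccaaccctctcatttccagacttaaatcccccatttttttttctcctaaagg
Hoxb1, 39.3 kb downstream, ΔSRR2–18 alone (chr11:96404909-96405109): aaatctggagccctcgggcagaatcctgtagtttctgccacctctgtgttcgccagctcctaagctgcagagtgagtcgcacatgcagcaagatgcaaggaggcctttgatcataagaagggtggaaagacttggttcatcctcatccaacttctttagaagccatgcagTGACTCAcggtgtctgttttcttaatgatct
Hoxb1, 42.1 kb downstream, shared (chr11:96407785-96407985): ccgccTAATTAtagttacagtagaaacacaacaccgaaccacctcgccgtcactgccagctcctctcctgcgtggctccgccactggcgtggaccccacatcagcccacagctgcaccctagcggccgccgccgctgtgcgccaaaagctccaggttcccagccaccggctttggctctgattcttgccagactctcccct
Hoxb1, 43.1 kb downstream, ΔSRR2–18 alone (chr11:96408761-96408961): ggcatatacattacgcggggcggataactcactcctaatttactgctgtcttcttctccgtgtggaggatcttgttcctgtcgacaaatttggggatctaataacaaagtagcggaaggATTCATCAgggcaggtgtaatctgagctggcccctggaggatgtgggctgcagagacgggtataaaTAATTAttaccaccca

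Of the intervals at these 5 genes, 4 of 13 in the parent list (30.8%) overlapped no ΔSRR2–18 interval, and 9 of 20 in the ΔSRR2–18 list (45.0%) overlapped no parent interval. Over the whole lists these shares were 52.3% and 63.1%, so both were below the background. The genotype-specific intervals lay in different places. All 4 parent-only intervals were at Hoxb3 and Hoxb2, inside the cluster. Of the 9 ΔSRR2–18-only intervals, 5 lay downstream of Hoxb1, 3 lay around Hoxb13 and 1 lay upstream of Hoxb4. By gene, Hoxb1 had 2 parent and 7 ΔSRR2–18 intervals, Hoxb2 had 4 and 2, Hoxb3 had 5 and 3, Hoxb4 had 2 and 5, and Hoxb13 had 0 and 3. This split depended on how weak intervals were treated. With the ΔSRR2–18 list shortened to the length of the parent list by fold enrichment, 8 intervals were parent-only and 4 were ΔSRR2–18-only, the opposite order. With the parent list brought down to the ΔSRR2–18 depth and a −log10 p of 100 or more required in each, 1 was parent-only and 6 were ΔSRR2–18-only. The 6 include the Hoxb2 promoter interval from 96351373 to 96351690, which is shared in the full lists. Its parent counterpart fell to a −log10 p of 78.1 at that depth and was dropped. Under both settings, some intervals thus counted as in 1 list alone because a shared partner was cut.

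**Figure D1:**
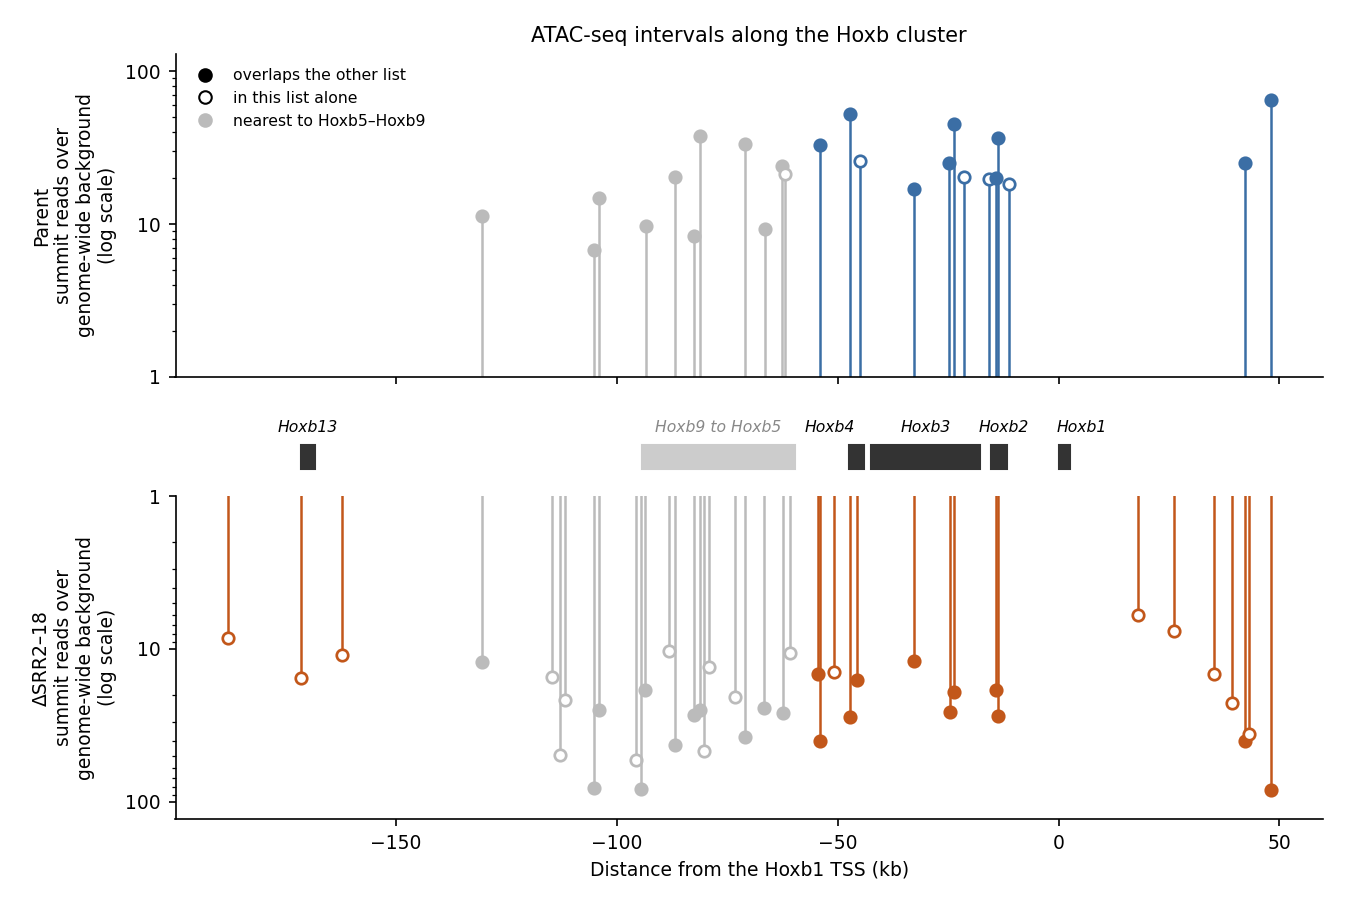
Summit reads of each interval over the genome-wide background of its list (log scale) against distance from the Hoxb1 TSS in kb, with parent NSPCs above, ΔSRR2–18 NSPCs mirrored below and the gene bodies between. Each stem is 1 interval, filled where it overlaps the other list and open where it does not, and grey where the nearest gene is Hoxb5 to Hoxb9. No parent stem stands near Hoxb13. The coloured open ΔSRR2–18 stems stand there, at 18.1 to 43.1 kb beyond Hoxb1 and upstream of Hoxb4. A further 9 open ΔSRR2–18 stems are grey and belong to Hoxb5 to Hoxb9.

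The level used in these comparisons is the number of reads piled up at a summit divided by the genome-wide background of the same list, 38.8 reads in the parent and 19.7 reads in the ΔSRR2–18 list. The ratio of these backgrounds, 1.98, was taken as the relative depth of the pooled libraries, although the labels give 50 to 60 M reads for every culture. Fold enrichment is instead relative to the local background, the mean read density around the summit, and is ranked within its own list. As a check of the labels, 4 parent and 0 ΔSRR2–18 intervals lay in the 16308 bp between the predicted cut sites of the Sox2 deletion. An interval within 1 kb of a TSS stood at all 8 NSPC marker genes in both lists, at 1 of 4 ESC markers (Esrrb) in both, at 2 of 3 neuron markers in the parent and 3 of 3 in the ΔSRR2–18 list, at 1 of 2 oligodendrocyte and 2 of 3 paraxial mesoderm markers in both, and at none of the astrocyte, blood or liver markers.

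No parent interval was assigned to Hoxb13. The ΔSRR2–18 list held an interval from 96193513 to 96194605 whose strongest summit was 46 bp upstream of the Hoxb13 TSS, with 305 reads, 15.5 times the genome-wide background, and a fold enrichment of 10.7 that ranked in the top 48.8% of the list. A promoter interval in the ΔSRR2–18 list alone was found for 10.5% of the coding genes with a promoter interval in either list. An interval 16.7 kb upstream (96177319 to 96178143), in an exon of the lincRNA gene Gm11535, had 167 reads, 8.49 times the background, at a fold enrichment of 8.13. An interval 9.33 kb downstream (96203209 to 96204214), intergenic in GENCODE, had 217 reads, 11.0 times the background, at a fold enrichment of 8.95. All 3 had a local background near the genome-wide mean, from 1.00 to 1.41 times it. The parent optimal list, the authors' other list for this genotype, held nothing at these places either. Scaled to the parent depth, the 3 intervals would have had a −log10 p above that of 29.9% to 49.6% of the parent list. Between Hoxb13 and Hoxb9, both lists shared an interval 40.8 kb from the Hoxb13 TSS, which fell to Hoxb9 because it was 36.3 kb from that TSS. On the other side, both lists shared an interval 48.5 kb from the Hoxb13 TSS, which fell to Ttll6 at 11.6 kb. In all, 372 of 21938 coding genes had no parent interval and at least 3 ΔSRR2–18 intervals.

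At Hoxb1, neither list held an interval within 1 kb of the TSS. The 2 parent and 7 ΔSRR2–18 intervals assigned to the gene were all intergenic and lay 18.1 to 48.1 kb downstream, in the gap before Skap1. The strongest, 48.1 kb downstream (96413351 to 96414352 in the parent list), had 2507 parent reads, 64.5 times the background, and 1661 ΔSRR2–18 reads, 84.5 times the background. It is also the member interval nearest to the edge of its gene's range, at 50.8 kb from the Skap1 TSS, and no interval of the 5 genes lay beyond 50 kb. The other shared site, 42.1 kb downstream, had 977 parent reads, 25.2 times the background, and 791 ΔSRR2–18 reads, 40.2 times the background. At both sites the depth-scaled level was higher in ΔSRR2–18 NSPCs.

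Of the 7 ΔSRR2–18 intervals at Hoxb1, 5 overlapped no parent interval, where 63.1% of the whole ΔSRR2–18 list did not. Like the shared sites, these 5 lay downstream of the gene, and their levels rose with distance from it. At 18.1 kb (96383627 to 96383967) there were 118 reads, 6.0 times the background, and this interval was missing from the ΔSRR2–18 optimal list. At 26.2 kb (96391782 to 96392113) there were 149 reads, 7.58 times the background. At 35.3 kb (96400755 to 96401222) there were 285 reads, 14.5 times the background. At 39.3 kb (96404824 to 96405236) there were 443 reads, 22.5 times the background. At 43.1 kb (96408632 to 96409058) there were 714 reads, 36.3 times the background, the highest level of any genotype-specific interval at the 5 genes. Fold enrichments ran from 3.57 to 7.26 and did not follow this order, because the local background rose too, from 1.00 times the genome-wide mean at 18.1 and 26.2 kb to 8.67 times at 43.1 kb. The parent lists, conservative and optimal, held no interval at any of these 5 places.

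At Hoxb4, the promoter was open in both lists and the differences were of degree. The parent interval from 96318229 to 96320341, with its strongest summit in the 5′ UTR 362 bp downstream of the TSS, had 2037 reads, 52.4 times the background. The ΔSRR2–18 list covered the same ground with an interval from 96318327 to 96319795, with 550 reads, 28.0 times the background, and a weaker interval of 315 reads, 16.0 times the background, in coding sequence 1.82 kb downstream. The promoter level was thus 1.87-fold higher in parent NSPCs. Upstream the order was the other way round. At 6.51 kb upstream the parent interval had 1271 reads, 32.7 times the background, with a fold enrichment of 25.3 that put it in the top 1.59% of the parent list. The ΔSRR2–18 interval at this place had 790 reads, 40.2 times the background, but a fold enrichment of 11.2 (top 45.9%). A further ΔSRR2–18 interval 6.99 kb upstream, with 287 reads, also overlapped that parent interval. At 3.38 kb upstream (96314769 to 96315166) an interval of 278 reads, 14.1 times the background, was listed in ΔSRR2–18 NSPCs alone, with the low fold enrichment of 2.98 (top 98.7%) over a local background of 4.70 times the genome-wide mean.

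Hoxb1 and Hoxb4 had 2 parent intervals each, all shared. Hoxb3 and Hoxb2 held every parent-only interval, 2 of 5 and 2 of 4, beside 52.3% over the whole parent list. The first, 2.44 kb upstream of the Hoxb3 start and in the 3′ UTR of Hoxb4 (96320697 to 96321103), had 1010 reads, 26 times the background. The second, 543 bp downstream of the internal Hoxb3 TSS and in a coding exon (96344028 to 96344569), had 786 reads, 20.2 times the background. This left Hoxb3 without a promoter interval in the ΔSRR2–18 list, as was the case for 5.43% of coding genes with a promoter interval in either list. The third, 1.52 kb upstream of the Hoxb2 TSS in an intron of Hoxb3os (96349600 to 96350373), had 761 reads, 19.6 times the background. Its strongest summit, at 96350111, is upstream of the annotated start of the Hoxb2 gene (96350525) and less than 1 kb from it. The fourth, 3.00 kb downstream of the Hoxb2 TSS in an exon of Hoxb3os (96354371 to 96354758), had 709 reads, 18.3 times the background. By summit reads the 4 ranked in the top 37.6% to 48.7% of the parent list, and by fold enrichment, at 2.71 to 4.44, in the top 88.3% to 98.2%, because the local background there was 5.63 to 7.21 times the genome-wide mean. The fourth interval had a counterpart in the ΔSRR2–18 optimal list, with 212 reads, 10.8 times the background, and the other 3 had none. Scaled to the ΔSRR2–18 depth, the 4 intervals would have had a −log10 p above that of 11.3% to 40.2% of the ΔSRR2–18 list.

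The shared intervals of Hoxb3 and Hoxb2 kept their places. At the Hoxb2 promoter, a summit 109 bp upstream of the TSS had 776 parent reads (20.0 times the background), and its counterpart 73 bp upstream had 365 ΔSRR2–18 reads (18.6 times). Both summits fall inside the gene as annotated, but before the only Hoxb2 TSS used. A summit 358 bp downstream, in a coding exon of Hoxb2, had 1414 parent reads (36.4 times) and, 1 bp on, 540 ΔSRR2–18 reads (27.5 times). The ΔSRR2–18 interval there ran on to 96353582 and held 6 summits against 1 in the parent list. In the parent optimal list 2 further intervals, of 593 and 650 reads (96352664 to 96353081 and 96353146 to 96353602), overlapped the added length in part. In an intron of Hoxb3, 9.63 kb from its start, there were 662 parent reads (17.0 times) and 235 ΔSRR2–18 reads (12 times).

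A pair of shared intervals just upstream of the internal Hoxb3 TSS behaved unlike each other. At 1.6 kb upstream (96341616 to 96342335) there were 1755 parent reads (45.2 times the background) and 374 ΔSRR2–18 reads (19.0 times), a level 2.37-fold higher in the parent. Next to it, an interval starting at 96340684 in both lists held 2 summits in each, and their order was swapped. In the parent list the summit at 96340895 led with 974 reads (25.1 times) over 681 reads (17.5 times) at 96341185. In the ΔSRR2–18 list the summit at 96341189 led with 509 reads (25.9 times) over 359 reads (18.3 times) at 96340836. The stretch printed above for this interval begins at the end of a RefSeq exon of Hoxb3 and holds the ΔSRR2–18 leading summit.

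Paired by longest overlap, the lists shared 9 pairs of intervals at Hoxb1 to Hoxb4. On the log2 scale, the depth-scaled ratio of summit reads, ΔSRR2–18 over parent, had a median of −0.11 over these pairs, against −0.24 over all 39096 shared pairs. It was 0.68 and 0.39 at Hoxb1 (42.1 and 48.1 kb downstream), 0.30 at Hoxb4 6.51 kb upstream and −0.91 at its promoter, −0.11 and −0.41 at the Hoxb2 promoter, and −0.51, 0.05 and −1.25 at Hoxb3 in the order of the chromosome. The 95% intervals from counting error were 0.54 to 0.81 for the highest and −1.41 to −1.09 for the lowest, and they cover pileup counting only, not the spread between cultures. A single pair, Hoxb3 at 1.6 kb, lay 2-fold or more below the median of all pairs, where 11.4% of all pairs did. None lay 2-fold or more above it, where 19.2% did. Leading summits nearly coincided at most pairs: 7 of the 9 had theirs within 12 bp of each other, where 39.4% of all pairs did. The 12 bp limit equals the widest gap among those 7 pairs. The median gap was 7 bp against 18 bp over all pairs.

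**Figure D2:**
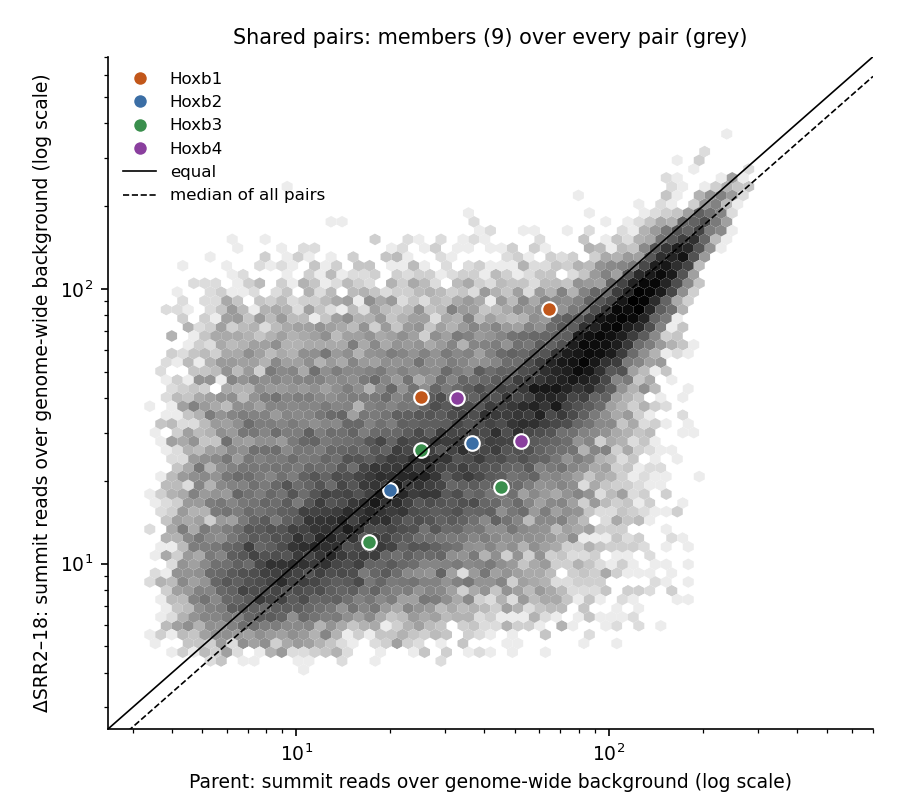
Summit reads over the genome-wide background in ΔSRR2–18 NSPCs against parent NSPCs (both log scale) for the 9 shared pairs at Hoxb1 to Hoxb4 (coloured) and all 39096 shared pairs (grey, darker where pairs are denser). The solid line marks equal levels and the dashed line the median of all pairs. The Hoxb1 pairs and the upstream Hoxb4 pair lie above the solid line and the Hoxb4 promoter and the lowest Hoxb3 pair lie well below it.

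The local background, which reflects the reads of the surroundings and not of the summit alone, differed between the lists by up to 5.30-fold at the shared pairs. Over all intervals its median was 1.57 times the genome-wide mean in the parent and 1.51 times in the ΔSRR2–18 list. In parent NSPCs it was 5.63 to 7.21 times at 9 of the 11 intervals of Hoxb2 to Hoxb4, and 1.27 and 1.82 times at the other two, Hoxb4 at 6.51 kb upstream and the Hoxb3 intron at 9.63 kb. In ΔSRR2–18 NSPCs it was 3.35 to 4.70 times at 9 of the 10 intervals of these genes and 1.88 times at the same intron. At the shared pairs of the Hoxb4 promoter, the Hoxb2 promoter and the internal Hoxb3 TSS, 5 pairs in all, the parent background was 1.5- to 1.72-fold higher. The ratio of ΔSRR2–18 over parent background at these 5 stood above that of 17.3% to 26.2% of all shared pairs. A higher parent background was the commoner order, at 26753 of 39096 pairs. Beyond Hoxb1 the order was reversed, with a ΔSRR2–18 background 5.30-fold higher at 42.1 kb and 2.00-fold higher at 48.1 kb, and it was 2.79-fold higher upstream of Hoxb4. The ratio at 42.1 kb stood above that of 99.1% of all shared pairs. Since fold enrichment is divided by this background, the site with a higher level in ΔSRR2–18 NSPCs at 42.1 kb had a lower fold enrichment there, 6.61 against 21.6 in the parent list.

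**Figure D3:**
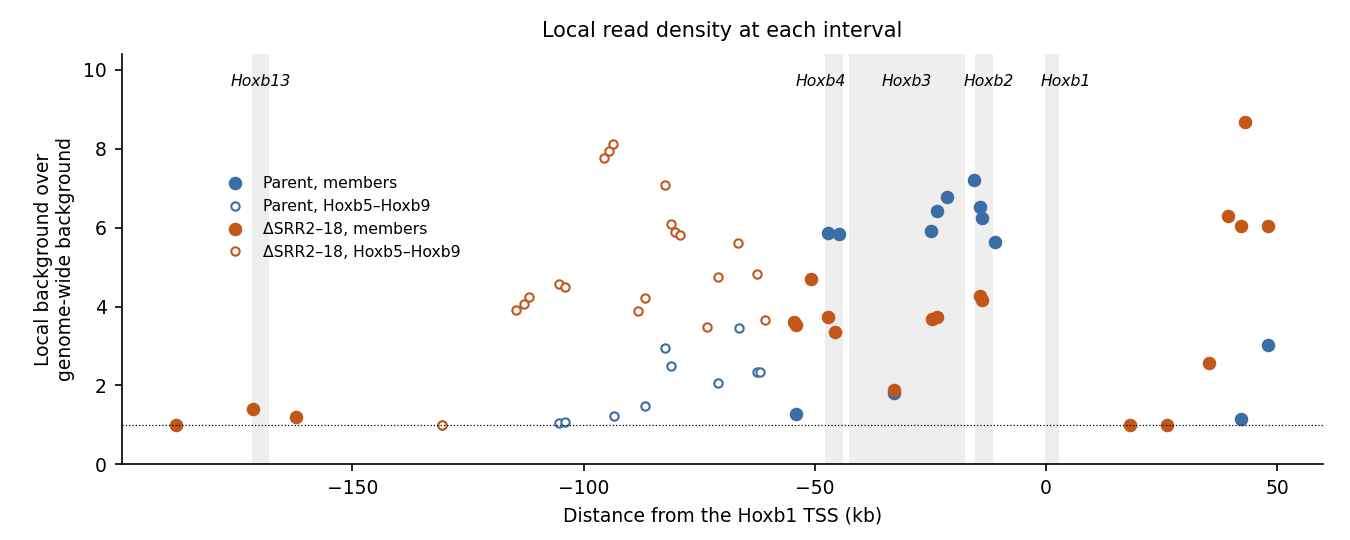
Local background over the genome-wide background of each list, at every interval of the Hoxb cluster, against distance from the Hoxb1 TSS in kb. Each point is 1 interval, filled for Hoxb1 to Hoxb4 and Hoxb13 and open for Hoxb5 to Hoxb9, with gene bodies shaded and a dotted line at the genome-wide mean. Parent points are the higher ones from the Hoxb4 promoter to Hoxb2, apart from the Hoxb3 intron where the lists nearly coincide, and ΔSRR2–18 points are the higher ones on both sides of it.

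The middle of the cluster, Hoxb5 to Hoxb9, served as the nearest comparison. Of its intervals, 1 of 11 was parent-only and 9 of 20 were ΔSRR2–18-only. Its 10 shared pairs had a median log2 ratio of 0.85, ranging from −0.58 to 3.6, against −0.11 at the end genes. The local background was higher in ΔSRR2–18 NSPCs at 9 of these 10 pairs and at the genome-wide floor in both lists at the other. At the end genes it was higher in the ΔSRR2–18 list at 4 of 9 pairs, and over the whole lists at 12343 of 39096 pairs. Among the 11 paralogues of the end genes in the other clusters, 12 of 28 parent intervals and 14 of 29 ΔSRR2–18 intervals were in 1 list alone, and the median log2 ratio over 16 shared pairs was −0.34. Of the paralogues, Hoxc13 matched Hoxb13 in having no parent interval and a ΔSRR2–18 promoter interval, with 2 ΔSRR2–18 intervals in all, whereas Hoxa13 and Hoxd13 had 2 and 1 intervals in both lists and none in a single list. Parent-only intervals with no ΔSRR2–18-only ones, as at Hoxb2 and Hoxb3, were also found at Hoxa2, where all 3 parent intervals, the promoter included, lacked a counterpart, and at Hoxd4 with its 1 parent interval. Hoxa3 had a promoter interval by its summit in the parent list alone, although both of its parent intervals overlapped a ΔSRR2–18 interval. None of these differences between groups of genes could be tested.

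**Figure D4:**
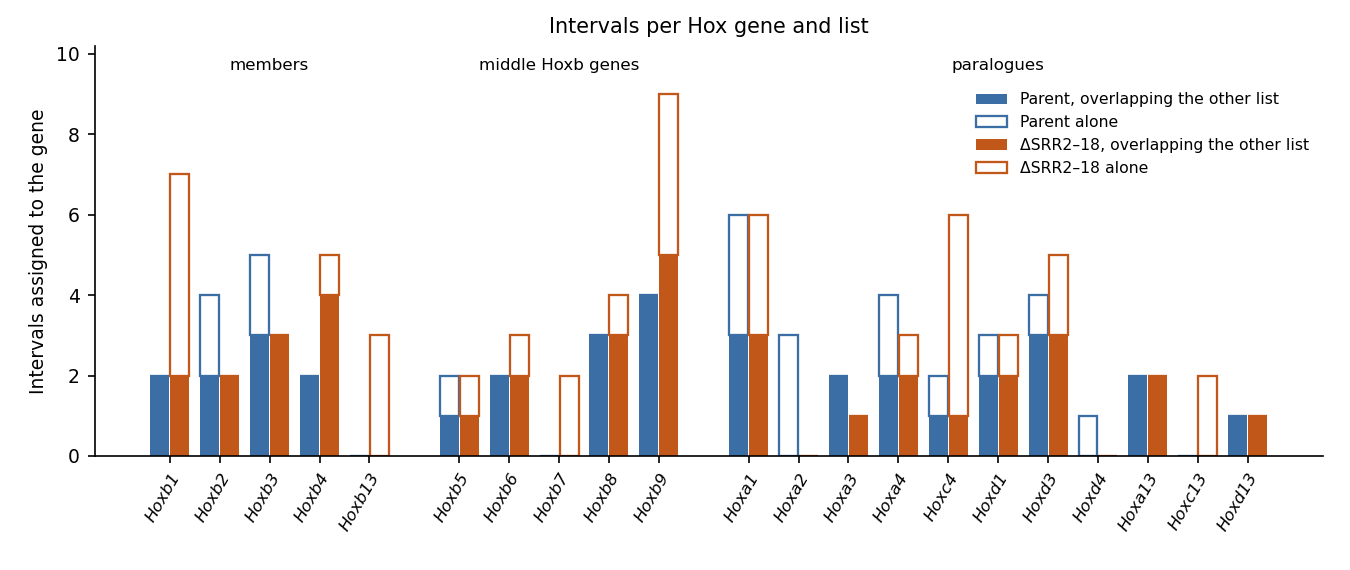
Number of intervals assigned to each Hox gene in the parent and the ΔSRR2–18 list, with the filled part overlapping the other list and the open part in 1 list alone. Hoxb13, Hoxb7 and Hoxc13 have open ΔSRR2–18 bars and no parent bar, and Hoxb2 and Hoxb3 have open parent bars alone.

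By the counts of parent-only, ΔSRR2–18-only and shared parent intervals, the Hox gene most like Hoxb13 was Hoxc11, with the same counts (0, 3 and 0). For Hoxb4 it was Hoxb6, also with the same counts (0, 1 and 2). Hoxa4 was nearest to Hoxb2 and to Hoxb3, at a summed difference of 1 and 2, and Hoxc4 and Hoxc6 were nearest to Hoxb1, at 2.

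Genes known to act with or upstream of these Hox genes had intervals in both lists, with the exception of Cyp26c1. For the HOX cofactors, 9 Pbx, Meis and Pknox genes, 31 of 66 parent intervals and 21 of 59 ΔSRR2–18 intervals were in 1 list alone. All 9 had a promoter interval in both lists. For the retinoic acid pathway (receptors, synthesis and breakdown enzymes and binding proteins, 14 genes) the counts were 31 of 70 and 46 of 85. Cyp26c1, a retinoic acid-degrading enzyme, had 0 parent and 3 ΔSRR2–18 intervals. For the caudal regulators Cdx1, Cdx2 and Cdx4 they were 2 of 6 and 3 of 7. Set against 52.3% and 63.1% over the whole lists, the 3 lists given here were below both. Other upstream genes are not reported here, so this does not extend to upstream regulators as a whole.

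The intervals differed in base composition. Within 100 bp of the strongest summit, the median GC content was 60.7% at the 11 shared and 48.8% at the 9 ΔSRR2–18-only intervals of the ΔSRR2–18 list, beside 54.2% at all shared and 45.8% at all ΔSRR2–18-only intervals of that list. The 9 were split by gene: the 5 at Hoxb1 had 45.3% to 48.8%, and the 3 at Hoxb13 and 1 at Hoxb4 had 59.2% to 67.2%. The 4 parent-only intervals had a median of 61.2%, beside 50.2% at all parent-only intervals and 52.2% over the whole parent list. None of the 4 was intergenic by its summit, and 8 of the 9 ΔSRR2–18-only intervals were.

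Motifs were searched within the same windows on both strands as exact letters, and a match is a description only. The HOX-PBX motif (TGATNNAT) was found at 1 of 13 parent and 5 of 20 ΔSRR2–18 intervals, beside 5.73% and 13.4% of all intervals, and the HOX homeodomain motif (TAATTA) at 0 and 2, beside 4.89% and 2.42%. Both occurred in the 43.1 kb interval downstream of Hoxb1, and TAATTA also in the shared site 42.1 kb downstream. Of the 5 ΔSRR2–18 intervals with HOX-PBX, 4 were among the 11 shared ones, beside 6.32% of all shared. The other was among the 9 ΔSRR2–18-only ones, beside 17.5% of all ΔSRR2–18-only. Windows were centred on each list's own strongest summit, so a match in 1 list can lie outside the window of the other. The AP-1 motif (TGANTCA), whose letters can overlap TGATNNAT, was at 1 parent and 4 ΔSRR2–18 intervals, beside 7.28% and 37.9% of all. It was found at 2 of the 9 ΔSRR2–18-only intervals, 26.2 and 39.3 kb downstream of Hoxb1, where 50.7% of all ΔSRR2–18-only intervals held it. The MEIS motif (TGACAG) was at 3 parent intervals, among them the parent-only ones 1.52 kb upstream and 3.00 kb downstream of the Hoxb2 TSS, and at 2 ΔSRR2–18 intervals, beside 16.4% and 15.6%. The SOX motif (ATTGTT) was at 1 interval in each list, the shared site upstream of Hoxb4, beside 9.24% and 8.78%. CDX (TTTATNG) was at 0 and 2, beside 5.33% and 9.10%, EGR2 (GCGNGGGCG) at 1 and 2, beside 2.15% and 1.59%, and CTCF at none. The 2 ΔSRR2–18 intervals with CDX were shared ones. A retinoic acid response element of the DR5 kind was present at 0.0483% of parent and 0.115% of ΔSRR2–18 intervals. It was found at 1 ΔSRR2–18 interval, the shared one upstream of the internal Hoxb3 TSS. The parent interval there spans the element too, but its window, on the other summit, does not reach it. It begins 47 bp from the leading ΔSRR2–18 summit, and HOX-PBX and CDX matches that overlap each other stand between them. The DR2 kind was found at none.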

How the data were processed

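ATAC-seq was performed on 3 cultures of parent and 3 of ΔSRR2–18 NSPCs (30000 cells, 11–14 PCR cycles per the labels). The authors ran the ENCODE ATAC-seq pipeline on mm10, called peaks with MACS2 and pooled cultures by IDR. The submitters' processing notes also name deepTools. Each deposited list gives an IDR score (540 is an IDR of 0.05), a fold enrichment (ratio over local background), a −log10 p and the other column used, the summit offset. The conservative lists were analysed, with the optimal ones as an alternative. No column belonged to another series (0).

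The fold enrichment (with a pseudocount of 1) and the −log10 p were solved for summit reads and local background. Reads were whole within 0.05 for 99.9993% of parent and 100% of ΔSRR2–18 peaks. By MACS2's default the local background comes from a 10 kb window, but the setting used is not given in the sources used here. An overlap of 1 bp made intervals shared. Cast reads may map to mm10 less often, and alleles were not separated. Pooled depth limits precision, and intervals of 95% cover counting error only.

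Every interval of the members was counted. Values are given for each interval in 1 list alone, each within 1 kb of a TSS and the 2 highest fold enrichments per gene and list. Members and gene lists were chosen with earlier results of these data known. Scripts (Python 3.11.15, numpy 2.4.6, pandas 2.3.3, scipy 1.17.1) were tested on simulated data. Some genes, a motif and a sequence are not reported here.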

Additional observations from a re-analysis of the deposited data

Results flagged for a closer look

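The ΔSRR2–18 optimal list was used above only to look up single intervals. It held 3 intervals at these genes that overlapped no interval of either parent list and none of the ΔSRR2–18 conservative list. In an intron of Hoxb3, 8796 bp from its start, an interval of 119 reads had a fold enrichment of 3.22. Downstream of Hoxb1, an interval 34388 bp from the TSS had 183 reads at a fold enrichment of 4.10, and an interval 42661 bp from it, between the shared site and the strongest ΔSRR2–18-only interval, had 265 reads at a fold enrichment of 2.17. No group had 4 or more lists, so a search for outlying values was not possible.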

How the results depend on the processing

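Shortening the ΔSRR2–18 list to the parent number by fold enrichment left 9 ΔSRR2–18 intervals, 8 parent-only and 4 ΔSRR2–18-only. Shortening it by −log10 p left 5 ΔSRR2–18-only. A distance of 10 kb left 12 ΔSRR2–18 intervals, 3 of them ΔSRR2–18-only, since all Hoxb1 intervals and the upstream Hoxb13 interval lie farther out. With TSSs of non-coding genes included, 6 parent and 5 ΔSRR2–18 intervals remained assigned, 1 of them ΔSRR2–18-only. Holding both lists to a −log10 p of at least 100 at a common depth, chosen after seeing the data, left 1 parent-only interval. Centring on the median of all shared pairs turned the median log2 ratio from −0.11 to 0.13. Under the optimal lists (15 and 23 intervals), merged intervals, an IDR score of at least 830, 50% reciprocal overlap and the summit chosen by −log10 p, each count stayed within 1.5 times its value. By percentile within the list the median pair ranked lower in ΔSRR2–18 NSPCs by summit reads (−2.88 points), fold enrichment (−21.7) and −log10 p (−4.82). No paired analysis was possible because the lists are pooled over cultures and carry no replicate numbers, and leaving out a culture could not be run for the same reason. The pooled depth and the threshold of each list limit what absence from it means.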
